A study of Mus musculus with 16 samples.

Results

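The protein-coding genes of mouse chromosome 3 were examined as a group in 16 B16F10 melanoma tumours, wild-type (WT) or low in Pros1 (BdP). A gene was included if it reached at least 1 FPKM (sequenced fragments per kilobase of a gene's length, corrected for library depth) in at least 4 of the 16 tumours, and 522 of the 1004 protein-coding genes listed on the chromosome did so. These 522 genes, called the members here, are part of 12319 genes of all kinds that passed the same filter on all chromosomes. The chromosome was chosen because its genes had been seen to be lower in BdP than in WT tumours, so it was selected on measured values of both genotype comparisons. Differences between the genotypes are therefore given as a description. Counts of genes that a fit across all genes called between the genotypes are given beside their background for the main fit. Under other settings they are given without it, and all of them support nothing here. The comparison of cisplatin with PBS within each genotype did not enter the choice and was tested.

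B16F10 is a melanoma line from C57BL/6 mice, and Pros1 encodes protein S, a plasma anticoagulant and a ligand of the TAM family of receptor kinases. WT or BdP cells (100000 per mouse) were placed under the skin of C57BL/6J mice aged 8 weeks, and intraperitoneal PBS or cisplatin, a DNA-crosslinking platinum drug, began 8 days later. Cisplatin was dosed at 5 mg/kg once a day for 3 days in 2 rounds, PBS followed the same calendar, and each of the 4 groups (WT PBS, WT cisplatin, BdP PBS and BdP cisplatin) held 4 tumours taken at the end stage. The sample titles call BdP deficient in Pros1 and the genotype label calls it a knockdown. How BdP cells were made, whether they are 1 clone, and whether the replicates of a group share a batch is not given in the sources used here, so spreads and p-values describe these tumours only. Pros1 itself, on chromosome 16, measured 9.77, 4.79, 5.89 and 5.42 FPKM in the WT PBS tumours and 1.61, 1.59, 1.58 and 1.24 in the BdP PBS tumours. Under cisplatin it was 10.4, 11.5, 7.78 and 11.4 in the WT cisplatin tumours and 2.39, 2.21, 2.52 and 1.73 in the BdP cisplatin tumours, so each BdP tumour lay below each WT tumour.

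Mouse chromosomes are acrocentric: the centromere sits at one end, and positions are counted from that end. A gene's RNA level follows its own promoter and enhancers, the state of the surrounding chromatin and the number of copies of the chromosome a cell carries, and tumour lines often gain or lose chromosomes or parts of them. Chromosome 3 has no single function. It carries large clusters of related genes, among them the S100 calcium-binding proteins, a cluster of replication-dependent histones and the guanylate-binding proteins (interferon-induced GTPases), as well as genes for proteasome subunits, ribosomal proteins and the small GTPase Nras. DNA copy number was not analysed here.

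Start-site sequences are shown for 4 members, because they place side by side members from both ends: the 3 lowest with separated genotypes, an average of 5 FPKM or more in the higher genotype and a promoter entry, and the highest named member with one. The windows run from 250 bases before to 50 bases after the start, from RefSeq on GRCm38.p6, which is the build of the files. Capitals mark matches to 4 motifs, namely CCAAT bound by the factor NF-Y, TATAAA bound by the TATA-binding protein, GGGCGG bound by Sp1 and the E-box CACGTG, searched on both strands; none of these contains another. S100a16 (chr3:90537004-90537303, plus strand) encodes an EF-hand calcium-binding protein and holds none of them. Wwtr1 (chr3:57575861-57576160, minus strand) encodes TAZ, a transcriptional coactivator of the Hippo pathway. Rtca (chr3:116508126-116508425, minus strand) encodes the RNA 3'-terminal phosphate cyclase. Cd53 (chr3:106790100-106790399, minus strand) encodes a leukocyte tetraspanin and was higher in BdP tumours on average.
S100a16: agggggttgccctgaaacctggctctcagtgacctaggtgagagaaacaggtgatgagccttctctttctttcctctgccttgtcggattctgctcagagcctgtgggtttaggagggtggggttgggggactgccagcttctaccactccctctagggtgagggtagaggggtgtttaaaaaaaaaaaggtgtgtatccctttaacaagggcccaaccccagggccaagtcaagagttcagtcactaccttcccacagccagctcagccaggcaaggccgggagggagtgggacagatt
Wwtr1: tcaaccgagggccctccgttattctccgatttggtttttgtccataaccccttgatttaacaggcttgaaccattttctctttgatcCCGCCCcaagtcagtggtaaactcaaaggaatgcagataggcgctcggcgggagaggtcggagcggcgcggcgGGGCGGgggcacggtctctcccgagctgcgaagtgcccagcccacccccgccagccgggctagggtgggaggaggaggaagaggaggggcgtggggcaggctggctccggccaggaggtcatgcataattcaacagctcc
Rtca: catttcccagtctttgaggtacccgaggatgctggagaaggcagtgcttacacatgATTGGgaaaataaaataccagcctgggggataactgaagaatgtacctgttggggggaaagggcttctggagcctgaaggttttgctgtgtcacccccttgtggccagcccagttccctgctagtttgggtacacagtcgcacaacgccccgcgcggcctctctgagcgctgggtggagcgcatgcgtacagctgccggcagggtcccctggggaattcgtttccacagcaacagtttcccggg
Cd53: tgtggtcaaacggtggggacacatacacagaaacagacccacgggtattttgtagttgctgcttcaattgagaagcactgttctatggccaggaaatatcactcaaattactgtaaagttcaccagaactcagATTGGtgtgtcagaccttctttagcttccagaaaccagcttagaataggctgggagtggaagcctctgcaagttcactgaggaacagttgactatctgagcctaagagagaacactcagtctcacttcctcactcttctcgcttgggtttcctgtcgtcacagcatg

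The promoter table held 416 of the 522 members by symbol. GGGCGG was present in 64.2% of them, CCAAT in 35.6%, CACGTG in 10.8% and TATAAA in 9.38%. The 8227 matched promoters of tested protein-coding genes on other chromosomes held the same motifs in 66.5%, 39.3%, 10.5% and 6.62%, and the 32851 start sites of the whole table, expressed or not, in 35.7%, 37.4%, 7.15% and 13.6%. The median GC content was 60.7% for members and 61.0% for genes on other chromosomes. Among the 36 matched members whose BdP tumours lay below every WT tumour under both treatments, 20 held GGGCGG, 10 CCAAT, 5 CACGTG and 2 TATAAA. These motif shares are descriptions of the letters and carry no test.

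The files held between 10051843 and 27055771 reads per tumour assigned to genes. One library stood apart: in WT PBS 1, 76.9% of reads came from mitochondrial genes, against 12.2% in WT cisplatin 3, 21.7% in WT cisplatin 4 and 2.03% to 5.06% in the other 13. Reads on members numbered 83422 in WT PBS 1, where 512 of the 522 were above 0, and 460559 to 1033432 elsewhere. Some results that rest on these libraries are given with and without them. Pigment-cell markers were high in every group, with a mean log2(FPKM + 1) over 14 genes of 7.41 ± 0.22 in WT PBS, 7.31 ± 0.062 in WT cisplatin, 7.40 ± 0.12 in BdP PBS and 7.27 ± 0.12 in BdP cisplatin (SD, n = 4), so the melanoma label is met. Leukocyte markers moved with genotype: all 20 were higher in BdP tumours on average under both treatments, and their mean was 2.96 ± 1.42 in WT PBS, 4.24 ± 1.15 in BdP PBS, 2.76 ± 0.93 in WT cisplatin and 4.01 ± 0.63 in BdP cisplatin. Their summed FPKM ranged from 86.0 to 2127, 699 to 3706, 143 to 1028 and 746 to 2060 in the same order, and no group was at 0. Of the defining endothelial markers 3 of 10 passed the filter, with a mean of 2.68 ± 0.12 in WT PBS, 3.01 ± 0.28 in BdP PBS, 2.64 ± 0.098 in WT cisplatin and 2.904 ± 0.28 in BdP cisplatin. Of the fibroblast markers 4 of 10 passed, with means of 1.71 ± 0.88, 1.99 ± 0.62, 1.43 ± 0.71 and 1.85 ± 0.21 in the same order. These means were higher in BdP tumours under both treatments, in overlapping groups. By gene, 2 of the 3 endothelial and 2 of the 4 fibroblast markers were higher in BdP tumours under PBS, and 3 and 1 under cisplatin. The part of other cell types in the results below was not tested. Erythroid markers varied widely within groups, with a mean of 8.94 ± 1.84 in WT PBS, 8.18 ± 0.73 in BdP PBS, 5.17 ± 2.31 in WT cisplatin and 4.41 ± 4.11 in BdP cisplatin.

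Chromosome 3 genes were lower in BdP tumours as a group. The median member differed by -0.14 (interquartile range -0.33 to 0.080) under PBS and by -0.20 (-0.36 to -0.018) under cisplatin, as BdP minus WT mean log2(FPKM + 1), a scale that understates changes of genes near 0. The same median over the 10369 tested protein-coding genes on other chromosomes was 0.021 and 0.017. Among members with a mean of at least 5 FPKM (305), the median ratio of BdP to WT was 0.862 under PBS and 0.834 under cisplatin, against 0.971 and 1.00 for the 6172 such genes elsewhere. In bulk tumours, fewer cells of a type and less RNA per cell cannot be told apart. The offset was small for any one gene and did not hold for all of them: 352 of 522 members (67.4%) lay below 0 under PBS and 403 (77.2%) under cisplatin, where 47.2% of genes elsewhere did in either treatment. Both differences were below 0 for 324 members, both above 0 for 91, and of opposite sign for 107. Without WT PBS 1 the PBS median was -0.15, and without all 3 mitochondria-rich libraries, a setting chosen after seeing the data, it was -0.15 under PBS and -0.18 under cisplatin. All differences here are on the deposited FPKM scale. In TPM, where every library has the same total with mitochondrial RNA included, the median of all genes moved to 0.82 under PBS and 0.15 under cisplatin and that of members to 0.65 and -0.081, which was -0.19 and -0.24 relative to other protein-coding genes. On that scale 14 of the 522 members lay below 0 under PBS and 323 under cisplatin, so the PBS differences given here as below 0 are nearly all above 0 in TPM. The TPM total also includes erythroid RNA. Summed FPKM of the 7 erythroid markers tested ran from 8200 to 207198 in WT PBS and from 13262 to 64224 in BdP PBS. Under cisplatin it ran from 54.8 to 9653 in WT and from 21.4 to 79831 in BdP tumours. TPM was not examined without WT PBS 1 or without erythroid genes, so the part of either in this shift was not tested.

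Of the 20 chromosomes compared, the autosomes and X, chromosome 3 had the lowest median in both treatments. Chromosome 17 came next, at -0.089 under PBS and -0.18 under cisplatin over 549 genes. Chromosome 18 was at the other end, at 0.20 and 0.27 over 275 genes. The median of the 19 other chromosomes was 0.021 under PBS and 0.019 under cisplatin. Chromosome 3 thus stood below the other chromosomes, and close to chromosome 17 under cisplatin.

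**Figure D1:**
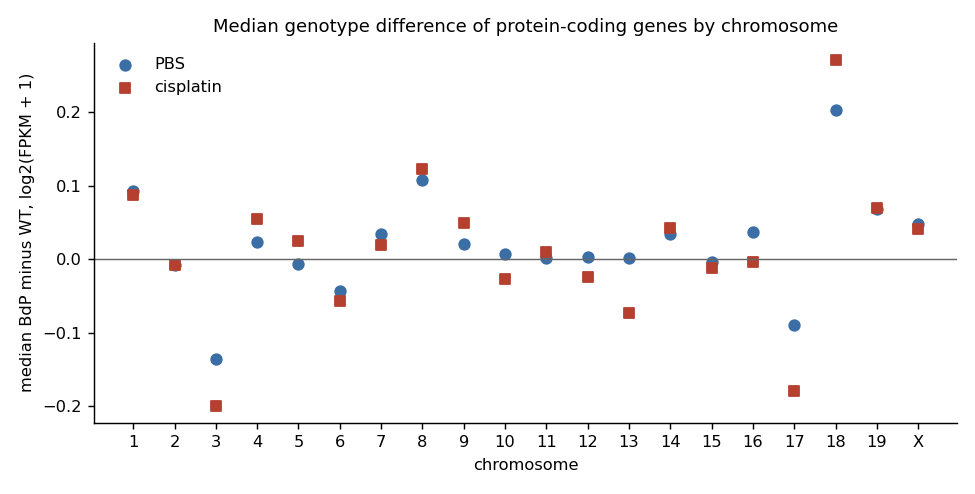
Median BdP minus WT difference in mean log2(FPKM + 1) of the protein-coding genes of each chromosome (x axis), with circles for PBS and squares for cisplatin. Chromosome 3 is the lowest in both treatments, at -0.14 and -0.20, next to chromosome 17 at -0.089 and -0.18.

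The offset was present in each BdP tumour. For every tumour, the median member was compared with the WT mean of the same treatment. The 4 BdP PBS tumours had medians of -0.12, -0.14, -0.16 and -0.15, and the 4 WT PBS tumours -0.038, 0.0076, 0.0066 and 0.019. Under cisplatin the BdP medians were -0.20, -0.22, -0.20 and -0.19 and the WT medians 0.0027, -0.035, -0.022 and 0.038. WT tumours, whose own values enter the WT mean, were also compared with the other 3 of their group and then lay between -0.050 and 0.050. The genotypes did not overlap in either treatment, and BdP tumours varied little among themselves, with an SD of 0.018 under PBS and 0.011 under cisplatin (n = 4). The same medians over genes of other chromosomes stayed between -0.047 and 0.025 in all 16 tumours. Members took 3.66% to 3.91% of non-mitochondrial reads in BdP PBS tumours and 3.53% to 3.93% in BdP cisplatin tumours. In WT tumours their share was 3.59%, 3.65%, 4.30% and 4.53% in WT PBS 1 to 4, which overlaps the BdP range, and 4.45% to 4.70% under cisplatin, which does not. The reads divided by include erythroid reads. The erythroid marker mean was 11.2 in WT PBS 2 and 9.98 in BdP cisplatin 3, the tumour at 3.53%. In WT cisplatin 2, at 4.45%, it was 1.96, the lowest of its group. The part of erythroid reads in these shares was not tested.

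**Figure D2:**
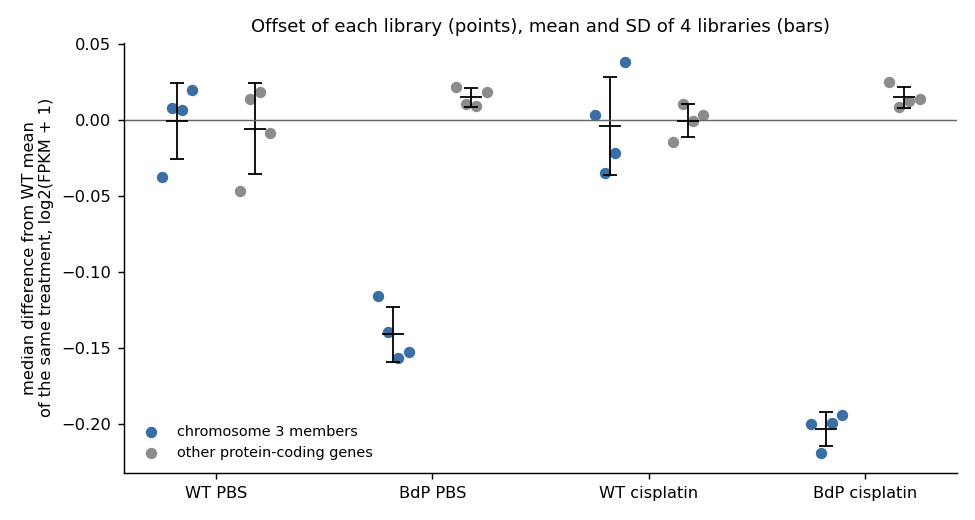
Median difference of each tumour from the WT mean of its treatment, in log2(FPKM + 1), for the chromosome 3 members (blue) and the other protein-coding genes (grey), by group on the x axis, with the mean and SD of 4 tumours as bars. BdP tumours sit between -0.22 and -0.12 for the members and between 0.0085 and 0.025 for the other genes.

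Along the chromosome the offset was broad with a gap. The members start between position 5560188 and position 159839672, and all 522 were at the same position in the GENCODE M21 annotation. In windows of 10 Mb, 15 of 16 medians were below 0 under PBS and 16 of 16 under cisplatin. The 41 members in the first 30 Mb had medians of -0.044 under PBS and -0.097 under cisplatin. From 30 to 70 Mb the 96 members were lowest, at -0.20 and -0.31, with 78 and 87 of them below 0. The 9 members from 70 to 80 Mb had medians of -0.11 and -0.10. From 90 Mb to the end, 298 members had medians of -0.16 and -0.21, with 207 and 236 below 0. The boundaries of these stretches were read from the windows after their values were seen, so the contrast between them is a description.

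The gap was the gene-rich window from 80 to 90 Mb. Its 78 members had medians of 0.0098 under PBS and -0.045 under cisplatin, with 38 and 48 below 0. The window holds 7 genes of the leukocyte list, and without them the medians were -0.017 and -0.064. Among its 49 members with a mean of at least 5 FPKM the medians were -0.098 and -0.090, against -0.25 and -0.35 for the 56 such members from 30 to 70 Mb. In single tumours the window's median was -0.024, -0.036, -0.043 and -0.022 in BdP PBS and -0.051, -0.088, -0.043 and -0.012 in BdP cisplatin. The members from 30 to 70 Mb measured -0.20, -0.22, -0.18 and -0.20 in the same BdP PBS tumours and -0.28, -0.32, -0.30 and -0.29 in the BdP cisplatin tumours. In each BdP tumour the earlier stretch was thus lower than the gap, while WT tumours ranged from -0.054 to 0.073 over that stretch and from -0.071 to 0.040 over the gap. Medians near 0 were not particular to the gap. The first 30 Mb measured 0.018, 0.0071, -0.082 and -0.088 in the BdP PBS tumours. In the BdP cisplatin tumours it measured -0.16, -0.22, -0.060 and -0.049. A running median of 31 members was below 0 at 461 of 492 positions under PBS and at 483 under cisplatin. It was lowest at -0.29 around Txnip under PBS and at -0.37 around Rnf13 under cisplatin, and highest at 0.12 around Fcrls and 0.037 around Fhdc1, both in the gap.

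**Figure D3:**
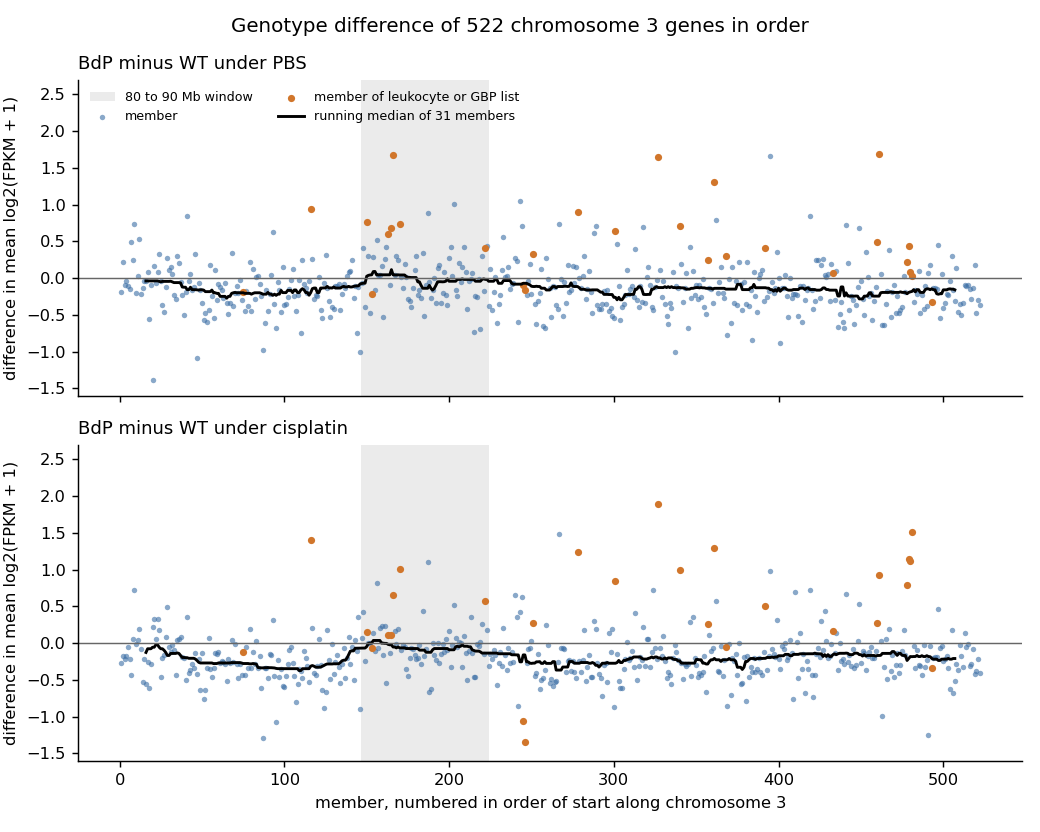
BdP minus WT difference in mean log2(FPKM + 1) of each of the 522 members in order of start along chromosome 3, under PBS (upper panel) and cisplatin (lower panel), with members of the leukocyte and guanylate-binding protein lists in orange and the running median of 31 members as a line. The line is below 0 at 461 of 492 positions under PBS and 483 under cisplatin, and its highest values lie in the shaded 80 to 90 Mb window.

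The medians of members went with their level, and so did those of other genes under PBS. Split evenly into 3 tiers of 174 by mean FPKM, the highest tier (over 10.7) had medians of -0.23 under PBS and -0.28 under cisplatin, the middle tier -0.13 and -0.15, and the lowest tier (under 3.82) -0.039 and -0.12. Genes of other chromosomes in the same ranges had medians of 0.10, 0.048 and -0.069 from the lowest to the highest level under PBS, and of 0.039, 0.024 and -0.0044 under cisplatin. Relative to those genes the members were at -0.14, -0.18 and -0.16 under PBS, a similar offset in each tier, and at -0.16, -0.18 and -0.27 under cisplatin. By length, the medians under PBS were -0.16, -0.16 and -0.080 from the shortest to the longest tier, and under cisplatin -0.23, -0.21 and -0.17, which was -0.12, -0.18 and -0.19, and -0.25, -0.21 and -0.20, relative to other genes of the same length. Members on the plus strand (271) measured -0.14 and -0.21, and those on the minus strand (251) -0.13 and -0.18. The 74 other tested chromosome 3 genes, which are noncoding RNAs and pseudogenes that the choice of members left out, had medians of -0.10 and -0.13, with 44 and 49 below 0, against -0.020 and -0.0023 for the 1354 such genes elsewhere. Of the 74, 29 were below 0 in both treatments, 10 above 0 in both and 35 of opposite sign. The kinds differed: the 37 processed pseudogenes had medians of -0.18 under PBS and 0.010 under cisplatin, with 26 and 17 below 0.

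In 45 members, all 4 BdP tumours lay below all 4 WT tumours under PBS and again under cisplatin; 1.42% of all genes tested did so. Under PBS alone 78 members were below in this way, where 4.32% of all genes were, and under cisplatin alone 144, where 6.6% were. The opposite pattern in both treatments was met by 1 member, Mecom, a zinc-finger transcription factor, where 0.942% of all genes met it. At an adjusted p below 0.05 (limma, over all 12319 genes) 17 members were called lower under PBS, where 0.576% of all genes were called lower, and 18 under cisplatin, where 0.722% were. In the other direction 2 members (Mecom and Npnt, an extracellular matrix protein) were called under PBS, where 0.414% of all genes were called higher, and none under cisplatin, where 0.349% were. Since these contrasts chose the members, the counts are listed beside their background and carry no further reading. Single libraries changed them. No share over all genes is given for the counts that follow, so they cannot be read as particular to chromosome 3. The 17 became 36 without WT PBS 3, and between 4 and 11 when WT PBS 1 or 4, BdP PBS 1 or 4, WT cisplatin 2 or 3, or any BdP cisplatin library was left out. The 18 became 59 without WT PBS 1, and between 5 and 9 when WT cisplatin 1, 3 or 4 or any BdP cisplatin library was left out.

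The lowest members by the average of both treatments, among those whose higher genotype averaged 5 FPKM or more, included genes with separated and with overlapping groups. Lhfp, which lies under that limit and was looked at after its values were seen, was the lowest of all separated members, at -0.68 and -1.08. Wwtr1 (chr3:57455649-57575910, minus strand), the TAZ coactivator whose start site is printed above, measured 17.6, 17.6, 16.6 and 22.1 FPKM in the WT PBS tumours and 13.97, 10.8, 14.3 and 14.3 in the BdP PBS tumours. Under cisplatin it was 21.8, 22.3, 25.6 and 23.4 in the WT cisplatin tumours and 14.2, 11.04, 13.3 and 13.5 in the BdP cisplatin tumours. Every BdP tumour was below every WT tumour, and the differences were -0.44 ± 0.11 under PBS and -0.80 ± 0.11 under cisplatin (log2, SE). Lix1l (chr3:96601149-96626171, plus strand) measured 26.2, 19.1, 22.4 and 19.8 FPKM in the WT PBS tumours and 13.3, 14.2, 14.5 and 15.1 in the BdP PBS tumours. Its cisplatin values were 22.3, 22.998, 21.8 and 21.9 in the WT cisplatin tumours and 15.1, 12.5, 13.4 and 15.9 in the BdP cisplatin tumours. The BdP tumours were the 8 lowest values for this gene, at 65.2% of the WT mean under PBS and 64.0% under cisplatin. Cks1b (chr3:89415472-89418383, minus strand), a small protein bound to cyclin-dependent kinases, measured 87.3, 58.01, 43.6 and 48.8 FPKM in the WT PBS tumours and 32.9, 32.7, 40.1 and 31.3 in the BdP PBS tumours. With cisplatin the values were 53.1, 47.7, 43.8 and 45.7 in the WT cisplatin tumours and 34.5, 33.6, 40.2 and 29.6 in the BdP cisplatin tumours. The groups did not overlap, WT PBS 1 was the highest of all, and the differences were -0.73 ± 0.17 under PBS and -0.46 ± 0.17 under cisplatin.

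Rtca (chr3:116488963-116508208, minus strand), the RNA cyclase, measured 23.1, 15.5, 17.1 and 17.2 FPKM in the WT PBS tumours and 8.48, 9.85, 10.5 and 8.39 in the BdP PBS tumours. Under cisplatin the values were 17.3, 15.9, 13.8 and 15.1 in the WT cisplatin tumours and 12.9, 10.2, 13.4 and 11.5 in the BdP cisplatin tumours. BdP tumours were lower throughout, by -0.89 ± 0.13 under PBS and -0.35 ± 0.13 under cisplatin. S100a16 (chr3:90537254-90543151, plus strand) measured 5.07, 6.91, 4.62 and 7.54 FPKM in the WT PBS tumours and 3.52, 4.36, 3.89 and 2.77 in the BdP PBS tumours. In treated tumours it was 10.1, 10.8, 6.63 and 9.11 in the WT cisplatin tumours and 6.36, 5.85, 3.62 and 3.02 in the BdP cisplatin tumours. These groups were separated within each treatment by a narrow margin. Mgarp (chr3:51388412-51396738, minus strand), a mitochondria-localised protein, had the lowest average of all: it measured 60.2, 29.3, 46.5 and 35.7 FPKM in the WT PBS tumours and 32.2, 20.1, 19.5 and 13.7 in the BdP PBS tumours. Cisplatin-treated tumours had 84.5, 52.1, 79.96 and 75.4 in the WT cisplatin tumours and 32.4, 18.2, 37.9 and 30.8 in the BdP cisplatin tumours. The treated groups were separated, whereas under PBS the highest BdP tumour exceeded the lowest WT tumour. The differences of Mgarp were -0.98 ± 0.28 under PBS and -1.29 ± 0.28 under cisplatin.

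Gstm5 and Gstm2, glutathione S-transferases of the mu class, which conjugate glutathione to electrophiles, were also among the lowest. Gstm5 (chr3:107895821-107898686, plus strand) measured 35.7, 24.6, 16.1 and 22.9 FPKM in the WT PBS tumours and 10.4, 18.2, 13.8 and 12.8 in the BdP PBS tumours. Under cisplatin it was 31.7, 23.1, 19.9 and 29.5 in the WT cisplatin tumours and 13.9, 12.8, 15.9 and 12.6 in the BdP cisplatin tumours, with no overlap there and an overlap of BdP PBS 2 with WT PBS 3. Gstm2 (chr3:107981702-107986453, minus strand) had means of 32.2 ± 4.32 in WT and 21.2 ± 6.37 in BdP tumours under PBS, and 39.01 ± 1.48 and 23.6 ± 2.15 under cisplatin (FPKM, SD, n = 4). Its BdP PBS 3 tumour, at 30.1 FPKM, lay within the WT range. These neighbouring genes are close copies of one another, so reads may be split between them. Gstm1, Gstm4 and Gstm7, further genes of the class that were looked at after their values were seen, differed by 0.15, -0.34 and -0.013 under PBS and by -0.21, -0.25 and -0.017 under cisplatin. Fam198b had means of 24.3 ± 10.2 in WT and 11.1 ± 3.09 in BdP tumours under PBS, and 23.3 ± 2.32 and 12.2 ± 2.18 under cisplatin, and its BdP and WT tumours overlapped under PBS.

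Zmat3, a zinc-finger RNA-binding protein, and Taf13, a subunit of the general factor TFIID, had PBS differences that changed without WT PBS 1, from -1.09 to -0.60 and from -0.85 to -0.49. Zmat3 stood at 32.1 FPKM in that tumour and at 6.07 to 10.5 in the other 3 WT PBS tumours, against 4.16 to 5.703 in BdP PBS. Taf13 stood at 20.9 there, and the other WT PBS tumours had 7.87, 5.83 and 8.18. S100a9, a subunit of the neutrophil protein calprotectin, is also a leukocyte marker: it measured 22.6, 21.99, 23.7 and 5.73 FPKM in the WT PBS tumours and 11.4, 27.7, 10.96 and 12.5 in the BdP PBS tumours, in overlapping groups. With cisplatin it was 22.6, 27.2, 26.1 and 66.7 in the WT cisplatin tumours and 6.78, 11.7, 17.3 and 15.1 in the BdP cisplatin tumours, with no overlap and WT cisplatin 4 far above the rest.

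**Figure D4:**
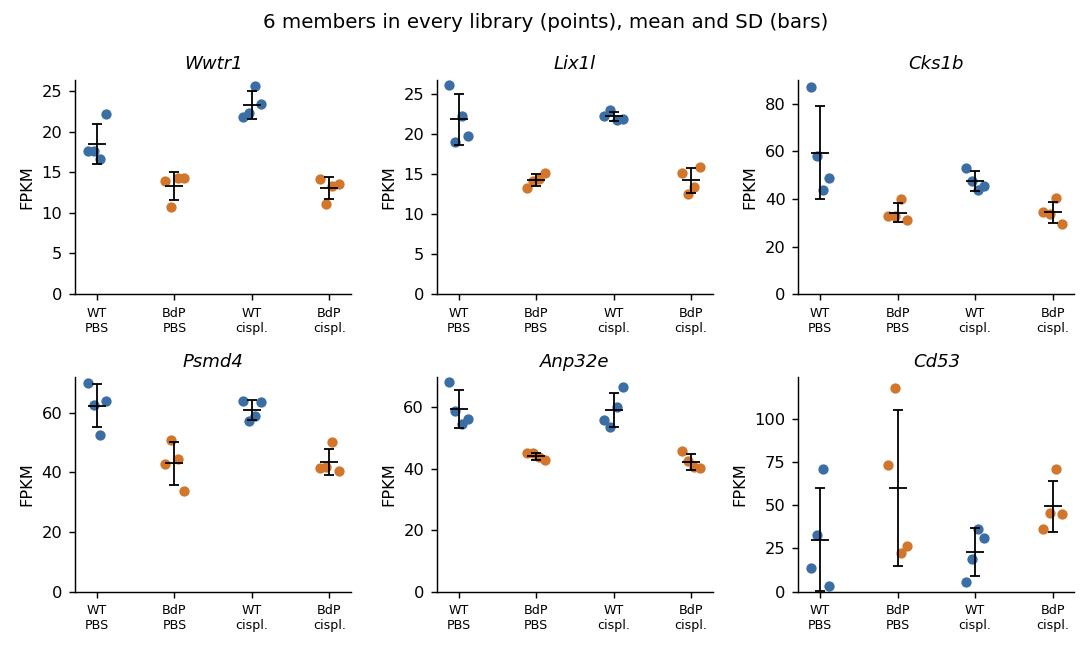
FPKM in every tumour (points) with the mean and SD of 4 (bars) for 6 members, WT in blue and BdP in orange, by group on the x axis. Wwtr1, Lix1l, Cks1b, Psmd4 and Anp32e have every BdP tumour below every WT tumour of the same treatment, and Cd53 has higher BdP means with overlapping groups under PBS.

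Chromosome 3 members were grouped into lists by function, drawn up with earlier results of these data known. The lists are broad, and several hold genes whose role goes beyond their name. Their counts of separated genes stand beside 45 of all 522 members and 1.42% of all genes tested. Such counts rest on the differences that chose the members, and no list was tested against the other members. The list of cell cycle and centrosome genes had 24 members, with medians of -0.13 under PBS and -0.25 under cisplatin. Of these, 17 and 21 were below 0, and 4 had BdP tumours below WT tumours throughout in both treatments. Besides Cks1b these were Anp32e, a chaperone that removes the histone variant H2A.Z, Ccna2 (cyclin A2) and Plk4, the kinase of centriole duplication; the last pair was singled out after its values were seen. Anp32e (chr3:95929246-95947390, plus strand) measured 68.3, 58.7, 54.5 and 56.1 FPKM in the WT PBS tumours and 45.04, 45.05, 43.8 and 42.7 in the BdP PBS tumours. Under cisplatin it was 56.02, 53.7, 60.1 and 66.5 in the WT cisplatin tumours and 45.97, 42.6, 40.7 and 40.2 in the BdP cisplatin tumours. Both comparisons were separated, and the BdP PBS tumours spanned a narrow range. H2afz, which encodes H2A.Z itself and has processed copies that could share its reads, had means of 206 ± 28.6 in WT and 132 ± 18.7 in BdP tumours under PBS, and 168 ± 15.5 and 135 ± 17.1 under cisplatin. Smc4, a condensin subunit, had means of 26.000 ± 1.497 in WT and 24.7 ± 1.32 in BdP tumours under PBS, and 26.6 ± 3.67 and 20.9 ± 1.15 under cisplatin, and its groups overlapped under PBS.

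Genes of RNA processing and translation were lower in most cases. The 32 members of that list had medians of -0.21 and -0.33, with 25 and 29 below 0 and 5 separated in both treatments. Among these were Rtca, Rbm8a, Eif4e and Mrpl9. Eif4e, the cap-binding subunit of the translation initiation complex, was singled out after its values were seen and measured 27.8, 25.96, 26.1 and 28.8 FPKM in the WT PBS tumours and 19.1, 20.98, 20.8 and 16.7 in the BdP PBS tumours. Under cisplatin it was 27.9, 27.6, 24.4 and 26.6 in the WT cisplatin tumours and 20.5, 19.2, 19.5 and 20.3 in the BdP cisplatin tumours. The groups did not overlap, and the differences were -0.47 ± 0.084 under PBS and -0.40 ± 0.084 under cisplatin. The ribosomal protein genes were less uniform, and all have processed copies that make their counts uncertain. Rps3a1 had means of 2489 ± 1747 in WT and 1518 ± 381 in BdP tumours under PBS, and 1726 ± 277 and 1541 ± 196 under cisplatin, WT PBS 1 alone reached 5091, and the PBS difference of -0.53 was -0.11 without it. Rps27 and Rpl34 differed by 0.021 and -0.24 under PBS and by -0.16 and -0.32 under cisplatin, within their spread, and without WT PBS 1 their PBS differences were 0.37 and -0.069. Mrps21, a mitochondrial ribosomal protein, had means of 72.7 ± 32.7 in WT and 48.9 ± 7.84 in BdP tumours under PBS, and 67.004 ± 7.93 and 48.2 ± 4.08 under cisplatin, and its PBS difference of -0.47 was -0.21 without WT PBS 1.

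The 15 members of the proteasome and ubiquitin list had medians of -0.30 under PBS and -0.24 under cisplatin. Of them 11 and 14 were below 0, and 5 were separated in both treatments: Psma5, Psmd4, Ube2q1, Ufm1 and Dcun1d1. Psmd4 (chr3:95032694-95042614, minus strand), a ubiquitin receptor of the proteasome's regulatory particle, measured 70.02, 62.5, 52.6 and 64.1 FPKM in the WT PBS tumours and 42.9, 50.9, 44.4 and 33.8 in the BdP PBS tumours. The cisplatin groups had 63.98, 57.4, 58.8 and 63.6 in the WT cisplatin tumours and 41.6, 41.8, 50.04 and 40.3 in the BdP cisplatin tumours. BdP tumours were the lower in each case, by -0.53 ± 0.12 under PBS and -0.48 ± 0.12 under cisplatin. Psma5 (chr3:108256926-108279974, plus strand), a subunit of the catalytic core, measured 67.1, 82.6, 75.5 and 82.9 FPKM in the WT PBS tumours and 61.6, 61.9, 63.6 and 42.4 in the BdP PBS tumours. With cisplatin it was 94.5, 74.4, 72.2 and 77.2 in the WT cisplatin tumours and 50.1, 54.3, 58.5 and 54.4 in the BdP cisplatin tumours. No BdP tumour reached a WT tumour of its treatment. Psmb4, another core subunit, had means of 148 ± 32.2 in WT and 94.3 ± 21.3 in BdP tumours under PBS, and 131 ± 16.2 and 94.2 ± 8.49 under cisplatin, and BdP PBS 2 overlapped the lowest WT PBS tumour. Its PBS difference of -0.65 was -0.52 without WT PBS 1. Ube2q1, a ubiquitin-conjugating enzyme, had a smaller difference that was still separated, at -0.18 under PBS and -0.15 under cisplatin.

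Metabolic genes, most of them mitochondrial, were mostly below 0. The 29 members had medians of -0.30 and -0.14, with 25 and 22 below 0; whether the treatments differ was not tested. Only Mrpl9 and Papss1, which makes the sulfate donor PAPS, were separated in both. Papss1, chosen after its values were seen, measured 26.5, 31.4, 30.9 and 33.9 FPKM in the WT PBS tumours and 21.1, 19.9, 20.03 and 16.9 in the BdP PBS tumours. In the treated mice it was 35.003, 35.7, 27.8 and 30.2 in the WT cisplatin tumours and 27.6, 25.9, 21.4 and 25.9 in the BdP cisplatin tumours, a narrower gap. Atp5f1, a subunit of ATP synthase, had means of 86.96 ± 12.03 in WT and 66.6 ± 12.9 in BdP tumours under PBS, and 84.9 ± 5.85 and 75.1 ± 3.91 under cisplatin. Ndufc1, a subunit of respiratory complex I, had means of 44.4 ± 23.9 in WT and 26.4 ± 4.23 in BdP tumours under PBS, and 37.04 ± 4.83 and 29.1 ± 2.697 under cisplatin, with WT PBS 1 the highest at 78.8 and a PBS difference of -0.61 that was -0.30 without it. Phgdh, the first enzyme of serine synthesis, had means of 107 ± 18.04 in WT and 84.8 ± 18.2 in BdP tumours under PBS, and 95.5 ± 16.3 and 76.1 ± 5.15 under cisplatin.

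Signalling and survival genes were mostly below 0. The 38 members had medians of -0.092 under PBS and -0.26 under cisplatin, with 24 and 33 below 0 and 5 separated in both treatments, among them Nras, Gnb4, Gnai3 and Slc16a1. Nras, the GTPase upstream of the MAP kinase cascade, was chosen after its values were seen and measured 33.5, 19.4, 19.9 and 18.6 FPKM in the WT PBS tumours and 14.1, 16.4, 12.8 and 13.3 in the BdP PBS tumours. With cisplatin the values were 18.8, 19.9, 17.9 and 20.2 in the WT cisplatin tumours and 15.5, 13.6, 14.4 and 14.2 in the BdP cisplatin tumours. Its groups did not overlap, and WT PBS 1 was the highest. Gnb4, a G-protein beta subunit, differed by -0.57 ± 0.099 under PBS and -0.76 ± 0.099 under cisplatin. Cyr61, a secreted matrix protein, measured 89.3, 88.5, 74.96 and 140.1 FPKM in the WT PBS tumours and 131, 64.8, 110.2 and 109.7 in the BdP PBS tumours, with overlapping groups. Cisplatin values were 148, 109.9, 192 and 159.7 in the WT cisplatin tumours and 44.7, 58.3, 79.7 and 71.8 in the BdP cisplatin tumours, where every BdP tumour was the lower. Hdgf and Mcl1 (an antiapoptotic BCL2 relative) differed by -0.14 and 0.034 under PBS and by -0.022 and -0.23 under cisplatin, with overlapping groups, and their PBS differences were -0.089 and 0.070 without WT PBS 1.

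**Figure D5:**
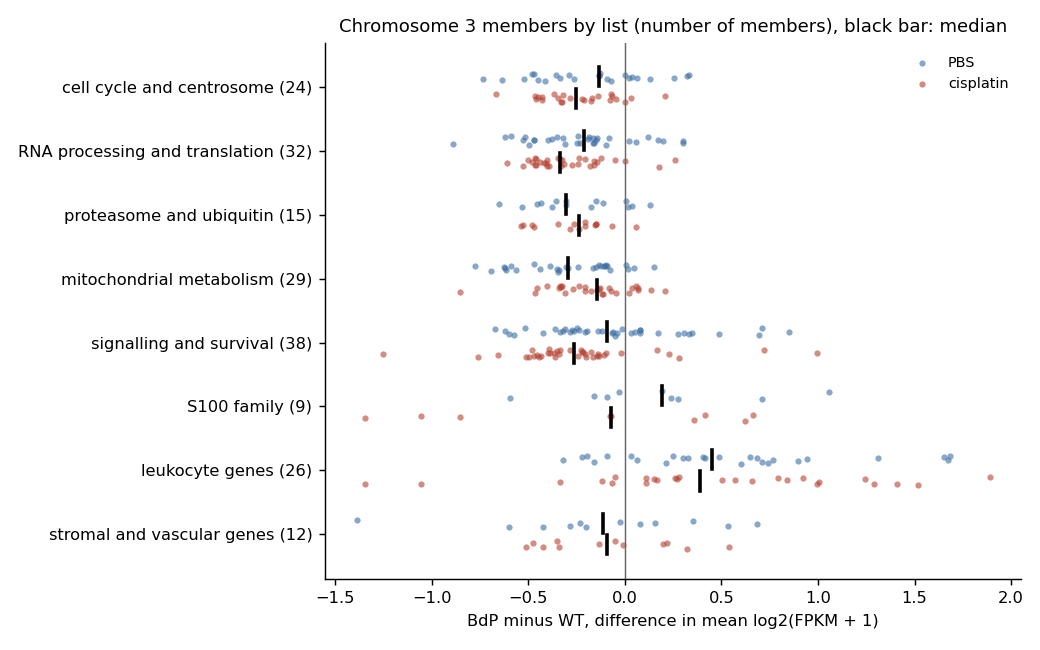
BdP minus WT difference in mean log2(FPKM + 1) of each member (points) of the 8 lists with at least 9 members, with the number of members in brackets, PBS in blue and cisplatin in red, and the median as a black bar. The leukocyte list is centred at 0.45 and 0.39, and the proteasome list at -0.30 and -0.24.

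Some lists went the other way or were mixed. Leukocyte genes on chromosome 3 were higher in BdP tumours: the 26 members had medians of 0.45 under PBS and 0.39 under cisplatin, with 5 and 6 below 0, in tumours whose leukocyte markers from all chromosomes were higher as well. Cd53 (chr3:106759921-106790149, minus strand) measured 13.8, 32.7, 70.9 and 3.19 FPKM in the WT PBS tumours and 73.2, 118, 22.5 and 26.5 in the BdP PBS tumours. The cisplatin groups had 5.71, 18.7, 36.3 and 31.2 in the WT cisplatin tumours and 36.4, 45.4, 70.8 and 44.98 in the BdP cisplatin tumours. BdP means were the higher the groups overlapped under PBS, and under cisplatin the lowest BdP tumour was just above the highest WT tumour. Ctss, a lysosomal protease of antigen-presenting cells, had means of 118 ± 114 in WT and 157 ± 116 in BdP tumours under PBS, and 56.8 ± 33.97 and 123 ± 59.004 under cisplatin. Cd2, an adhesion receptor of T and natural killer cells, measured 1.18, 1.58, 8.29 and 0.0217 FPKM in the WT PBS tumours and 9.79, 33.6, 1.13 and 5.54 in the BdP PBS tumours, from near 0 to 33.6. S1pr1, a sphingosine-1-phosphate receptor of lymphocytes and endothelium, had means of 0.992 ± 1.02 in WT and 6.46 ± 5.97 in BdP tumours under PBS, and 2.14 ± 2.901 and 5.22 ± 5.702 under cisplatin. Tnfaip8l2, a regulator in immune cells, had means of 4.98 ± 4.56 in WT and 9.01 ± 9.09 in BdP tumours under PBS, and 2.35 ± 2.18 and 7.62 ± 3.53 under cisplatin, with BdP PBS 2 at 22.5. The spread of these genes within a group was wide, often as large as its mean.

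The 4 guanylate-binding protein genes that passed the filter had medians of 0.15 under PBS and 1.13 under cisplatin, and none was below 0. Gbp2 (chr3:142620602-142638008, plus strand) measured 21.4, 12.03, 80.7 and 0.421 FPKM in the WT PBS tumours and 48.7, 22.8, 3.64 and 5.77 in the BdP PBS tumours. In the treated mice it was 2.74, 6.699, 8.29 and 3.79 in the WT cisplatin tumours and 15.9, 3.898, 44.3 and 22.01 in the BdP cisplatin tumours. The BdP PBS tumours lay within the WT PBS range, and BdP cisplatin 2 lay within the WT cisplatin range. Gbp3, Gbp7 and Gbp5 differed by 0.084, 0.44 and 0.21 under PBS and by 1.12, 1.14 and 0.79 under cisplatin. Without WT PBS 1 the PBS difference of Gbp2 was 0.27 in place of 0.034, and that of Gbp3 was 0.28. Without the 28 members of the leukocyte and guanylate-binding protein lists, a setting chosen after seeing the data, the other 494 had medians of -0.15 and -0.21, with 347 and 397 below 0. The part of leukocyte content in the difference of each single member was not tested.

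The 9 S100 genes had medians of 0.19 under PBS and -0.069 under cisplatin, with 4 and 5 below 0. S100a8 and S100a9 count among both these and the leukocyte genes. S100a1 measured 162, 144, 109 and 91.97 FPKM in the WT PBS tumours and 146, 164, 168 and 127 in the BdP PBS tumours. With cisplatin the values were 82.3, 119, 100.1 and 101 in the WT cisplatin tumours and 142, 144, 180.2 and 171 in the BdP cisplatin tumours, where BdP was the higher throughout. S100a11 and S100a10 differed by -0.032 and 0.19 under PBS and by -0.077 and -0.069 under cisplatin, in overlapping groups, and the PBS difference of S100a11 was 0.078 without WT PBS 1. Of 10 clustered histone genes 2 passed the filter: Hist2h2be had means of 2.83 ± 0.728 in WT and 1.64 ± 0.545 in BdP tumours under PBS, and 3.57 ± 0.8302 and 1.47 ± 0.0845 under cisplatin, and Hist2h2ac had 1.498 ± 1.67 in WT and 0.524 ± 0.218 in BdP tumours under PBS, and 1.001 ± 0.778 and 1.2005 ± 0.387 under cisplatin. The PBS difference of Hist2h2ac was -0.52, and -0.12 without WT PBS 1. Histone messages of this kind mostly lack poly(A) tails, so their level depends on how RNA was selected. The 12 stromal and vascular genes had medians of -0.11 and -0.093, with 7 and 8 below 0. F3 (tissue factor) had means of 22.4 ± 7.31 in WT and 14.1 ± 3.17 in BdP tumours under PBS, and 25.1 ± 3.84 and 19.4 ± 1.18 under cisplatin. Lxn, an inhibitor of carboxypeptidases, differed by -0.43 and -0.42, Fabp5, a fatty acid binding protein, by -0.20 and -0.0072, and Ecm1 by -0.29 and -0.51. Npnt, on the same list, was higher in BdP tumours, at 2.44, 2.67, 1.94 and 2.8998 FPKM in WT PBS and 3.68, 4.58, 4.99 and 5.19 in BdP PBS. Mecom measured 0.412, 1.28, 0.982 and 1.32 FPKM in WT PBS and 1.86, 1.82, 3.07 and 3.69 in BdP PBS, and 1.31, 1.15, 1.77 and 1.802 against 2.297, 1.97, 2.26 and 2.26 under cisplatin.

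Cisplatin against PBS within a genotype was not used to choose the members and was tested. No member passed an adjusted p of 0.05 in limma in either genotype. Among all genes 1 (0.00812%) passed in WT tumours and 0 (0.0%) in BdP tumours. At an unadjusted p below 0.05 there were 58 members in WT (11 lower with cisplatin) and 24 in BdP (9 lower), beside 953 and 542 of all 12319 genes. The median member changed by 0.039 with cisplatin in WT tumours and by -0.00042 in BdP tumours, and 40.2% and 50.4% of members were below 0, against 51.1% and 50.1% of protein-coding genes elsewhere. The difference between WT and BdP in this change was not tested.

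The members with the smallest p in WT tumours were 4930579G24Rik, Lrrcc1 (a centrosomal protein), Elf2 (an ETS transcription factor) and Psrc1 (a spindle protein). 4930579G24Rik measured 7.28, 7.19, 6.12 and 6.01 FPKM under PBS and 5.25, 4.72, 5.05 and 4.93 under cisplatin. The groups did not overlap, and the change was -0.35 ± 0.088 (log2, SE), with a limma adjusted p of 0.425. Psrc1 measured 15.8, 23.8, 13.4 and 24.7 under PBS and 50.3, 37.3, 27.3 and 33.3 under cisplatin. Its treated tumours were all above the untreated, with a change of 0.91 ± 0.26 and a limma adjusted p of 0.548. Lrrcc1 changed by 0.47 ± 0.13 (limma adjusted p = 0.54001) and Elf2 by 0.35 ± 0.10 (limma adjusted p = 0.548).

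In BdP tumours the members with the smallest p included Mnd1 (a meiotic recombination factor), E2f5 (a transcription factor of the E2F family) and Gfm1 (a mitochondrial elongation factor). Mnd1 measured 3.97, 2.41, 3.25 and 2.502 FPKM under PBS and 4.87, 5.95, 6.26 and 5.58 under cisplatin. Treated tumours were higher without overlap, and the change was 0.74 ± 0.18, with a limma adjusted p of 0.773. E2f5 changed by -0.59 ± 0.16 (limma adjusted p = 1) and Gfm1 by 0.36 ± 0.11 (limma adjusted p = 1). None of these passed the threshold.

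Membership turned on the filter for few genes. Of the 522 members 416 reached 1 FPKM in all 16 tumours and 3 in exactly 4, namely Trim46, Cd1d1 and Ppm1j, with medians of 0.43 under PBS and 0.11 under cisplatin. Just outside were 8 genes at 1 FPKM in 3 tumours, with medians of -0.0057 and 0.018. The 3 of these with the highest mean were Dennd2d, Cyp2u1 and Fdps, whose differences were 0.39, -0.13 and -0.033 under PBS. Below the filter were 482 genes in all, of which 434 reached 1 FPKM in no tumour.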

How the data were processed

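RNA was sequenced from 16 end-stage tumours, 4 in each of 4 groups set by the labels. The authors deposited 1 table of FPKM values with gene position, length and biotype. The submitters' processing notes name CASAVA, HISAT2 2.0.5, featureCounts 1.5.0-p3 and the build GRCm38 (mm10), and further settings are not given in the sources used here. FPKM times length was a whole number of reads for 100% of values (tolerance 0.1 read), which gave the depth of each library.

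The 12319 genes that reached 1 FPKM in 4 or more libraries were put on the log2(FPKM + 1) scale. Group means and a spread pooled over all 16 libraries were fitted with limma 3.58.1 in R 4.3.3 (empirical Bayes with a mean-variance trend), and p-values were adjusted by Benjamini-Hochberg over all genes. The fit was also run on simulated data with independent noise and planted changes larger than the member medians given here. That run therefore does not bear on offsets of this size. Windows, running medians, promoter motifs and figures were computed in Python 3.11.15 (pandas 2.3.3, matplotlib 3.10.9). Alternatives covered the pseudocount, filter, scaling, block, window size and each left-out library.

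The members and gene lists were chosen with earlier results of these data known. Genes were named by rule: among members that averaged 5 FPKM or more in the higher genotype and had 1 sign in both treatments, the 12 lowest and 6 highest averages; the 4 of each list with the highest mean FPKM; the 4 smallest p per cisplatin contrast; 3 on each side of the filter; and Pros1. Some genes that the rule or a count would name are not reported here. Others are marked as chosen after their values were seen, or are members that met a stated count. Errors are SD for FPKM and moderated SE for log2 differences.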

Additional observations from a re-analysis of the deposited data

Results flagged for a closer look

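Of 272 groups of 4 tumours examined, over 61 named genes and 7 summaries of each tumour (medians of members, their stretches and other genes, and the share of reads), 24 held 1 tumour far from the other 3. Distance was measured as the tumour's gap to the nearest of them over the whole range of the group. The cut-off flags about 1 in 20 groups of independent normal values. FPKM values of genes from the same tumours are not independent, so the 24 cannot be set against that rate. All values are FPKM. In the WT PBS group these were Zmat3 at 32.1 in WT PBS 1, S100a9 at 5.73 in WT PBS 4, Taf13 at 20.9 in WT PBS 1, S1pr1 at 2.52 in WT PBS 3, Rps3a1 at 5091 in WT PBS 1, Fabp5 at 141 in WT PBS 2, Trim46 at 1.76 in WT PBS 1, Cd1d1 at 0.776 in WT PBS 3, Ppm1j at 0.906 in WT PBS 3 and Fdps at 1.43 in WT PBS 4. WT PBS 1, the library with 76.9% mitochondrial reads, accounts for 4 of the 24. In the WT cisplatin group they were S100a9 at 66.7 in WT cisplatin 4, Hdgf at 161 in WT cisplatin 2, Fabp5 at 77.6 in WT cisplatin 3 and Lxn at 20.1 in WT cisplatin 3. In the BdP PBS group they were Fam198b at 15.7 in BdP PBS 1, Zmat3 at 5.703 in BdP PBS 4, S100a9 at 27.7 in BdP PBS 2, Wwtr1 at 10.8 in BdP PBS 2, Tnfaip8l2 at 22.5 in BdP PBS 2, Psma5 at 42.4 in BdP PBS 4 and Pros1 at 1.24 in BdP PBS 4. In the BdP cisplatin group they were Psmd4 at 50.04 in BdP cisplatin 3, Gfm1 at 20.5 in BdP cisplatin 3 and Ppm1j at 1.04 in BdP cisplatin 3. Wwtr1, S100a9, Psma5 and Psmd4 are among the members described above, and the low or high tumour did not bridge the genotypes for Wwtr1, Psma5 or Psmd4.

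For 4930579G24Rik, every treated WT tumour lay below the untreated ones and every treated BdP tumour above them: the change was -0.35 in WT and 0.29 in BdP tumours on the log2(FPKM + 1) scale. This difference between genotypes was not tested.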

How the results depend on the processing

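Under every alternative tried except TPM, the median of the members kept its sign under PBS, and it did so under cisplatin in all of them. Scaling to TPM divides by a total that includes mitochondrial and erythroid RNA. It turned the PBS median to 0.65 and left 14 members below 0. It also moved the median of all genes to 0.82 under PBS and 0.15 under cisplatin. Relative to other protein-coding genes the members were at -0.19 and -0.24 in TPM, beside -0.16 and -0.22 in the FPKM values. Under TPM, Rtca (0.015), Lix1l (0.36), H2afz (0.36), Anp32e (0.57) and 4930579G24Rik (0.011) were also above 0 under PBS, the change of 4930579G24Rik with cisplatin in WT was 0.38, the cisplatin median was -0.081, and 0 members were separated in both treatments or called lower in either. The PBS median was -0.16 with a pseudocount of 0.1, -0.16 with 1 FPKM required in all 16 libraries, -0.033 with no filter and -0.21 after centring on the other autosomes. The cisplatin median was -0.23, -0.23, -0.055 and -0.26 in the same order, -0.22 without the 80 to 90 Mb window and -0.18 without the 3 mitochondria-rich libraries (the last 2 chosen after seeing the data). Without those 3 libraries 86 members were separated in both treatments, 5 were called lower and 0 higher under PBS, and 8 lower under cisplatin; fewer WT tumours make separation easier. Leaving out 1 library at a time gave PBS medians of -0.15 to -0.12, cisplatin medians of -0.20 to -0.19, 4 to 36 members called lower and 0 to 2 called higher under PBS, and 5 to 59 called lower and 0 to 1 called higher under cisplatin. With no filter 9 were called lower and 0 higher under PBS. With only the 8 libraries of a contrast 0 were called lower and 0 higher under PBS, and 44 lower and 1 higher under cisplatin. Centring gave 30 called lower under cisplatin and 0 higher under PBS. With a pseudocount of 0.1, or 1 FPKM in all libraries, 1 was called higher under PBS, and in TPM 0. No share over all genes is given for these settings or for the replicate block below. The counts of members called or separated under them therefore cannot be read as particular to chromosome 3. The causes of these changes in count were not tested. In windows of 5 Mb 80% of medians under PBS and 93.3% under cisplatin were below 0, and in windows of 20 Mb 100%.

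The labels do not say that replicate numbers pair the tumours, and the data gave no sign of it under PBS or in every pair under cisplatin: the correlations of same-numbered WT and BdP tumours were -0.24, 0.062, -0.61 and 0.41 under PBS and 0.24, -0.11, 0.28 and 0.19 under cisplatin, and 0 of 4 and 2 of 4 correlated best with their own number. With the replicate number as a block 10 members were called lower under PBS and 9 under cisplatin, and the median of within-number differences was -0.15 under PBS and -0.20 under cisplatin. WT PBS 1, with 2322202 non-mitochondrial reads, limits the precision of its group.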
